A study of Mus musculus with 4 samples.

Results

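The genes of the interferon receptors and of the Janus kinases that signal from them are described here by the open chromatin around them. They are Ifnar1, Ifnar2, Il10rb, Ifngr1, Ifngr2, Jak1, Jak2 and Tyk2. A peak, that is a region called as open, was taken as theirs when its centre lay inside one of the genes, within 1 kb of one of its ends, or nearer to one of its ends than to that of any other protein-coding gene. This gave 67 of the 97699 peaks of the table, and 1 of them, where Ifnar2 and Il10rb adjoin, belongs to both. Position alone decided which peaks belong, but the 8 genes were selected on changes already seen in this same comparison, so their changes and calls are given as a description. Such a call supports nothing beyond the peak it names.

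The assay was ATAC-seq on MC38/gp100 cells, where a transposase cuts DNA that is accessible and tags the cut ends. MC38 is a mouse colon adenocarcinoma line, and the labels give no further treatment or genotype beyond the gp100 antigen that all the cells carry. Cells grown in RPMI with serum were kept for 5 days with 1 µM GSK3368712, which blocks the type I arginine methyltransferases, or with its solvent DMSO, and each group has 2 libraries. Whether the libraries of a group are separate cultures is not stated, so the spread behind the p-values may be technical. The line is a bulk population, and a site open in fewer cells cannot be told apart from a site less open in each cell. At the ends of 8 epithelial genes 2 had a peak, Krt8 with 347 normalised reads under GSK3368712 and 294 in DMSO and the untested Cldn7 with 38.3 and 23.3 in the same order, log2 changes of 0.24 and 0.72. At those of 8 fibroblast and endothelial genes 3 did, with a median of 153 reads under GSK3368712 and 177 in DMSO and changes from -0.21 in Dcn to 0.02 in Col1a1, which had 1596 under GSK3368712 and 1574 in DMSO. Of 8 blood cell genes 6 had one, with a median of 68.0 reads under GSK3368712 and 57.8 in DMSO over the strongest peak of each, although Cd68 reached 2336 under GSK3368712 and 2419 in DMSO. These peaks show open gene ends and not expression, most epithelial markers had none, and no marker peak passed the test in the authors' deposited table.

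Interferons signal through pairs of receptor chains that carry no enzyme of their own. The type I receptor is made of IFNAR1, bound to the kinase TYK2, and IFNAR2, bound to JAK1. The type II receptor for interferon gamma is made of IFNGR1, bound to JAK1, and IFNGR2, bound to JAK2. Once ligand draws the chains together, the kinases phosphorylate STAT proteins, which enter the nucleus and switch on interferon-stimulated genes. IL10RB is the shared second chain of the receptors for interleukin 10, interleukin 22 and type III interferon. In tumour cells this pathway controls antigen presentation and the growth arrest that interferon imposes.

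The DNA at the start sites is shown first, because these windows lie in the strongest peak of each gene except Ifnar2, whose strongest peak is upstream, and the distal changes are read against them. RefSeq start windows of 300 bases (250 before to 50 after the start, GRCm38.p6) were found for 7 of the 8 genes, all but Il10rb. The 4 below belong to Ifnar2, Jak1 and Ifngr1, the genes with a called peak elsewhere, and to Ifnar1, the partner of Ifnar2. They read 5′ to 3′ on the strand of the gene, with the motifs named after them in capitals.
Ifnar2 (chr16:91372533-91372832, plus strand): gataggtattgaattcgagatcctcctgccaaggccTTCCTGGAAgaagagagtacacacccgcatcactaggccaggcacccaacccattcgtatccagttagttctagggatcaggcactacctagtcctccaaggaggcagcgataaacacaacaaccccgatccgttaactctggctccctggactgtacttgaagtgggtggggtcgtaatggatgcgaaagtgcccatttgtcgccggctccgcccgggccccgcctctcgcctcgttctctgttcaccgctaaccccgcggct
Ifnar1 (chr16:91484965-91485264, plus strand): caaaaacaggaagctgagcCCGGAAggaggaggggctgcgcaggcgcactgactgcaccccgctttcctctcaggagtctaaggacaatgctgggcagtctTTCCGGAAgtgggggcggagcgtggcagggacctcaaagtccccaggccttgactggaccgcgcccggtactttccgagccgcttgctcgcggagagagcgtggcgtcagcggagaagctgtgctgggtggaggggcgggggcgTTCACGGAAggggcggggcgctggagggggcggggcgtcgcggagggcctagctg
Ifngr1 (chr10:19591699-19591998, plus strand): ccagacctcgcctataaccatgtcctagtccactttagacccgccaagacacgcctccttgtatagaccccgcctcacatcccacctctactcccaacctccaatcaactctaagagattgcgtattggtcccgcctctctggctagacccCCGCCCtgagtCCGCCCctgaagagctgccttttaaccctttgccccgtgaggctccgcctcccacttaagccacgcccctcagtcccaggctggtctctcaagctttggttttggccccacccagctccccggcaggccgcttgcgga
Jak1 (chr4:101265174-101265473, minus strand): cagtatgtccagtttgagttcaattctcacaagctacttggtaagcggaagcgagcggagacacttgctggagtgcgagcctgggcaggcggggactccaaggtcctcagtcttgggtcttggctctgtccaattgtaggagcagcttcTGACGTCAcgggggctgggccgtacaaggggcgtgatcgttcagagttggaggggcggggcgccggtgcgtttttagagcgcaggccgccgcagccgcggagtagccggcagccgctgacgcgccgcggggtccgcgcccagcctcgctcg

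Capitals mark the STAT motif GAS (TTCNNNGAA) in Ifnar2 and Ifnar1, the ETS motif (CCGGAA) in Ifnar1, the SP motif (GGGCGG, here on the other strand as CCGCCC) in Ifngr1 and the CRE motif (TGACGTCA) in Jak1. Both strands were searched, and in Ifnar1 an ETS match on each strand overlaps in the run of 8 capitals. The GAS letters occurred in 2 of the 7 windows and in 8.30% of all 32851 RefSeq windows of this length. The ETS letters occurred in 1 and in 14.9% of all, and the CRE letters in 1 and in 1.79% of all. Every one of the 7 windows held the SP letters, which 35.7% of all windows hold. The interferon response element ISRE (GAAANNGAAA) and the AP-1 motif (TGANTCA) were in none of the 7, and in 3.44% and 7.81% of all. The CTCF motif (CCNCNAGNNGGC) was in none of the 7 and in 2.44% of all, and the NF-kB motif (GGGANNNNCC) was in those of Ifngr2 and Tyk2 and in 20.7% of all. The 7 windows held from 57.0% G and C in Ifnar2 to 81.0% in Jak2, against a median of 52.7% over all windows. They held from 14 CpG in Ifngr1 to 44 in Jak2, against a median of 7. A match is a description of letters and says nothing of binding.

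Around these genes a few sites away from the gene ends changed and the gene ends themselves did not pass the test. Of the 67 peaks 53 count as tested, meaning that the authors' adjusted p-value is under 1, and the other 14 were weak. Of the 53, 4 were lower under GSK3368712 than in DMSO at an adjusted p under 0.05 in the authors' deposited table, and 1 was higher. These are 7.55% and 1.89% of the tested member peaks, beside 6.09% lower and 0.492% higher among all 74791 tested peaks. After each group's normalised reads, summed over all peaks, were set equal (scaling to library totals), 3 member peaks were lower and 1 higher, or 5.66% and 1.89%, beside 3.61% and 0.837% of all tested peaks. These shares differ by a few peaks from those of the table and are no result about these genes. The called peaks belong to Ifnar2, Jak1 and Ifngr1, and none of the tested peaks of the other 5 genes passed. Those 5 had from 2 tested peaks in Il10rb to 7 in Jak2. At the shares of the whole table, so few peaks without a call do not set a gene apart. By the authors' deposited table, at an unadjusted p under 0.05, lower member peaks numbered 10, or 18.9% of those tested, beside 14.3% of all tested peaks.

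**Figure D1:**
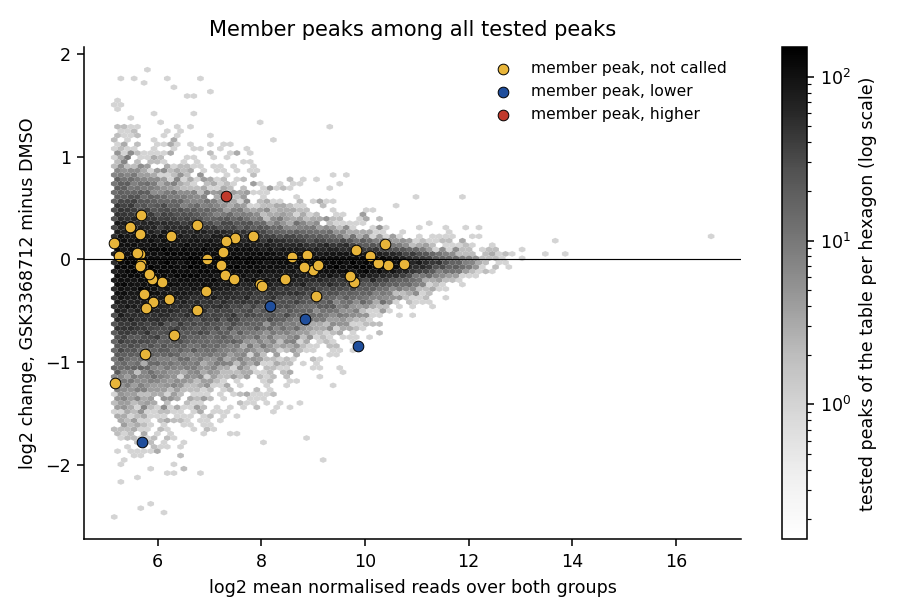
Each tested peak by its log2 mean normalised reads over both groups (x axis) and its log2 change, GSK3368712 minus DMSO (y axis), with grey hexagons for the 74791 tested peaks of the table and coloured points for the 53 tested peaks of the 8 genes. Most coloured points lie inside the dense part of the cloud, the lowest has -1.78, the Ifnar2 peak with -0.84 stands out at a level of 9.86, and the higher peak has 0.62.

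The calls lay away from gene ends. All 8 gene-edge peaks, those with a centre within 1 kb of a gene end, were tested and none passed, where 1.54% of gene-edge peaks of the table were lower. Of the 45 tested member peaks away from gene edges 4 were lower and 1 higher, or 8.89% and 2.22%, beside 7.02% and 0.541% of such peaks in the table. Intergenic member peaks had a median log2 change of -0.22 in the authors' deposited table, with 18 of 22 below 0, which is 81.8%, while 63.7% of all tested intergenic peaks were below 0 and their median was -0.10. Peaks inside a gene had a median of 0.02 over 23 member peaks, beside -0.09 in the table. Gene-edge member peaks had a median of -0.04 over 8 peaks, beside -0.03 in the table. On the whole table, 92.5% of changed peaks were lower, and 81.2% after scaling to library totals.

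None of the start sites passed the test. The changes of the 8 gene-edge peaks ran from -0.10 to 0.15 log2 in the authors' deposited table. Approximate standard errors put their 95% intervals between -0.33 and 0.34, or between 0.797 and 1.26 times the DMSO level. For Jak2 and Il10rb the error was derived from the change and its p-value. For the other peaks, with changes under 0.1 log2, it was the median error of tested peaks of similar level. Those intervals reflect the read level and not the spread at the peak itself. Scaling folds to library totals takes a constant of -0.08 off every log2 change, so values between -0.08 and 0 turn positive and the signs of such small values carry no direction. Summed over the 8 peaks, the authors' deposited table gave 8203 normalised reads under GSK3368712 and 8206 in DMSO.

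Tyk2, the kinase of IFNAR1, had the densest start-site peak, with 2437 normalised reads per kb of peak under GSK3368712 and 2505 in DMSO by the authors' deposited table. Ifngr1 followed in DMSO, with 1568 reads per kb under GSK3368712 and 1623 in DMSO by the authors' deposited table, and Jak2 had 1667 under GSK3368712 and 1502 in DMSO. This pair is the only one among the 8 whose order differed between the groups, and the log2 changes of both peaks, -0.05 and 0.15, had adjusted p-values of 0.839 and 0.475 in the authors' deposited table. Ifnar1 had 1109 reads per kb under GSK3368712 and 1132 in DMSO, and Jak1 had 983 under GSK3368712 and 963 in DMSO, in the authors' deposited table. Ifnar2, the ligand-binding chain of the type I receptor, had 461 reads per kb under GSK3368712 and 449 in DMSO in the authors' deposited table. The peak at the end of Il10rb next to Ifnar2 had 321 under GSK3368712 and 344 in DMSO in the authors' deposited table. The broad 2108 bp peak of Ifngr2 had 211 under GSK3368712 and 222 in DMSO by the same measure. Since the table gives no spread between libraries, neighbours in this order were not tested against each other.

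**Figure D2:**
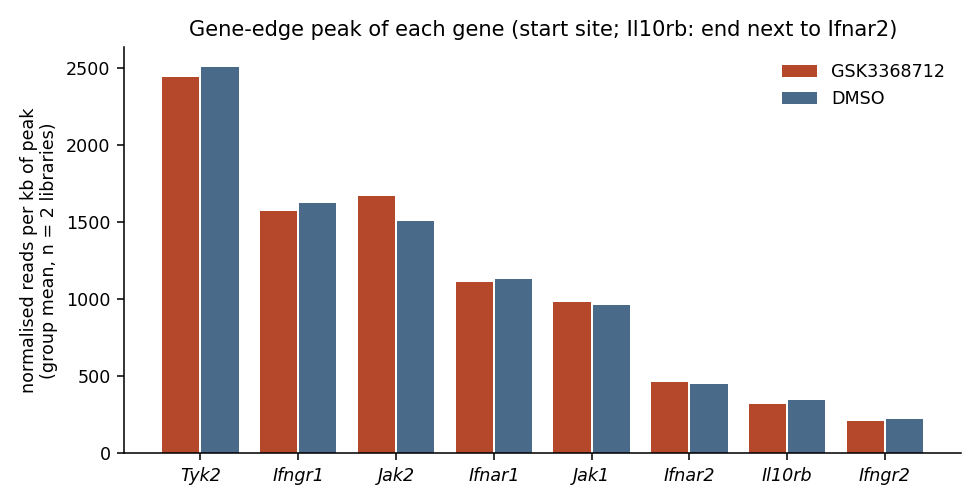
Normalised reads per kb of peak (y axis) at the gene-edge peak of each gene, as the authors' group means of 2 libraries, GSK3368712 left and DMSO right, with no error bars because values per library were not used here. Tyk2 is highest with 2437 under GSK3368712 and 2505 in DMSO and Ifngr2 lowest with 211 and 222 in the same order, and the bars of a gene differ little.

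Ifnar2 had the lower peaks of the receptor genes, both upstream of its start. A peak 20.1 kb upstream, at chr16:91352074-91353219 and 1146 bp wide, had 666 normalised reads under GSK3368712 and 1193 in DMSO in the authors' deposited table. Its log2 change of -0.84, a ratio of 0.559, had a 95% interval of -1.02 to -0.66 and, in the authors' deposited table, an adjusted p of 1.25e-15, the number 15 of all tested peaks by p-value. A second peak, 9.67 kb upstream at chr16:91362460-91363771 and 1312 bp wide, had 370 reads under GSK3368712 and 553 in DMSO in the authors' deposited table. Its log2 change was -0.58, a ratio of 0.669, with an interval of -0.83 to -0.33 and, in the authors' deposited table, an adjusted p of 0.000439. Both are intergenic, and both were called in 2 of 2 libraries of each group.

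The other Ifnar2 peaks place these losses. A weaker peak between the called ones, 14.1 kb upstream, had 89.9 reads under GSK3368712 and 126 in DMSO, a log2 change of -0.49 where the authors' deposited table gave an adjusted p of 0.275. The start-site peak shown above had 481 reads under GSK3368712 and 468 in DMSO in the authors' deposited table. Its log2 change was 0.04, with an approximate interval of -0.21 to 0.29 derived here. Per kb of peak, the site 20.1 kb upstream held 1.26 times the reads of the start site under GSK3368712 and 2.32 times in DMSO. Inside the gene a peak 25.4 kb past the start had 109 reads under GSK3368712 and 135 in DMSO, with -0.31 and, in the authors' deposited table, an adjusted p of 0.615. The 3 untested Ifnar2 peaks held at most 27.7 reads under GSK3368712 and 25.8 in DMSO. All 9 Ifnar2 peaks together held 2258 normalised reads under GSK3368712 and 3047 in DMSO by the authors' deposited table, a log2 ratio of -0.43, and with the 5 peaks at its ends and in its body alone the ratio was -0.05.

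Ifnar1, which encodes the other chain of the type I receptor, had 6 tested peaks and none passed. Among all tested peaks 6.09% were lower and 0.492% higher. Its start-site peak, at chr16:91484657-91485739, had 1201 reads under GSK3368712 and 1226 in DMSO in the authors' deposited table, a log2 change of -0.03. A strong peak past the gene's far end, 37.3 kb from the start at chr16:91522062-91523014, had 468 reads under GSK3368712 and 600 in DMSO, with -0.36, an interval of -0.61 to -0.11 and, in the authors' deposited table, an adjusted p of 0.0656. This peak reached 0.0467 when only peaks at or above the median level of the table were counted, since fewer peaks are then adjusted for. A peak upstream, 9.29 kb from the nearest gene end, had 165 reads under GSK3368712 and 189 in DMSO, with -0.19 and, in the authors' deposited table, an adjusted p of 0.764. Inside the gene a weak peak with 58.9 reads under GSK3368712 and 43.7 in DMSO had 0.43 and, in the authors' deposited table, an adjusted p of 0.689.

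Il10rb, the shared chain of the interleukin 10 family receptors, had 3 peaks. Its gene-edge peak, at chr16:91405696-91407225, lies across the end of Il10rb and most of the 567 bp gap to Ifnar2, with its centre inside Il10rb. It had 491 reads under GSK3368712 and 526 in DMSO, with -0.10 and, in the authors' deposited table, an adjusted p of 0.787. Past the other end, 26.7 kb away, a peak had 326 reads under GSK3368712 and 372 in DMSO, with -0.19 and, in the authors' deposited table, an adjusted p of 0.596. The third, inside the gene at chr16:91415662-91416013, had 13.6 reads under GSK3368712 and 42.2 in DMSO and was called in 0 of 2 GSK3368712 and 2 of 2 DMSO libraries. Its log2 change of -1.63 had an unadjusted p of 0.00189 in the authors' deposited table, but it was too weak to be among the tested peaks. With no level filter its adjusted p was 0.0423.

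Among the type II receptor genes the called peak was a gain. Ifngr1, which encodes the ligand-binding chain for interferon gamma, had the only higher member peak, at chr10:19570005-19570956, 21.5 kb upstream of its start. It had 194 normalised reads under GSK3368712 and 126 in DMSO in the authors' deposited table, a log2 change of 0.62 and a ratio of 1.54. Its interval was 0.21 to 1.03 and the authors' deposited table gave an adjusted p of 0.0459, which became 0.0577 when every peak of the table was adjusted for. The next peak out, 28.2 kb upstream, had 149 reads under GSK3368712 and 165 in DMSO, with -0.15 and, in the authors' deposited table, an adjusted p of 0.858. Between 60.4 and 62.0 kb upstream lay a peak with -0.41 and one with 0.21, with adjusted p-values of 0.633 and 0.706 in the authors' deposited table. The start-site peak, at chr10:19591442-19592315, had 1370 reads under GSK3368712 and 1418 in DMSO in the authors' deposited table. Its change was -0.05, with an approximate interval of -0.21 to 0.11 derived here. All 10 Ifngr1 peaks summed to 2169 reads under GSK3368712 and 2172 in DMSO by the authors' deposited table. No peak of the table had its centre inside the gene, and the next one downstream belonged to Il20ra, with a log2 change of 0.08 in the authors' deposited table. The farthest member lay 100 kb upstream of the start, and the first peak beyond it belonged to Olig3.

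Ifngr2, the accessory chain that brings JAK2, had 3 tested peaks with log2 changes from -0.07 to 0.18 in the authors' deposited table. None passed, where 6.09% of all tested peaks were lower and 0.492% higher. Its start-site peak had 446 reads under GSK3368712 and 468 in DMSO in the authors' deposited table. The approximate interval derived here was -0.33 to 0.19 around -0.07. A peak 10.5 kb inside the gene had 169 reads under GSK3368712 and 149 in DMSO, with 0.18 and, in the authors' deposited table, an adjusted p of 0.780.

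Ifnar2, Il10rb, Ifnar1 and Ifngr2 stand in this order on chromosome 16 over 191 kb, from 91372783 to 91564007. With 100 kb on each side the window held 38 peaks, of which 30 were tested, and ends of 9 protein-coding genes. The only called peaks in it were the 2 upstream of Ifnar2, which lie 10.5 kb apart. They are 6.67% of the tested peaks of the window, where 6.09% of all tested peaks were lower. In the stretch upstream of Ifnar2, 7 peaks held 1323 reads under GSK3368712 and 2048 in DMSO by the authors' deposited table, a log2 ratio of -0.63. The stretch from Ifnar2 through Il10rb had a log2 ratio of -0.09, the gap from Il10rb to Ifnar1 -0.19, Ifnar1 -0.01, the gap from Ifnar1 to Ifngr2 -0.27 and Ifngr2 -0.01. Past Ifngr2, where Tmem50b, Dnajc28, Gart, Son and Gm36712 follow, 12 peaks had a ratio of -0.04. No peak in the gaps passed, and the value of the last gap rests mainly on the Ifnar1 peak with 468 reads under GSK3368712 and 600 in DMSO, since its 3 tested peaks had a median log2 change of -0.05.

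The window as a whole held 9145 reads under GSK3368712 and 10277 in DMSO by the authors' deposited table, a log2 ratio of -0.17, beside -0.08 over all peaks of the table. Without the 2 called peaks upstream of Ifnar2 the ratio of the window was -0.07, so its lower total rests mainly on them. Among peaks of the neighbours, one near Tmem50b had the lowest value, -1.09, where the authors' deposited table gave an adjusted p of 0.0824. The first peak beyond those of Ifnar2, assigned to Olig1, had 57.3 reads under GSK3368712 and 66.3 in DMSO, with -0.21 in the authors' deposited table. The first peak beyond those of Ifngr2 belonged to Tmem50b, with 0.35 in the authors' deposited table.

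**Figure D3:**
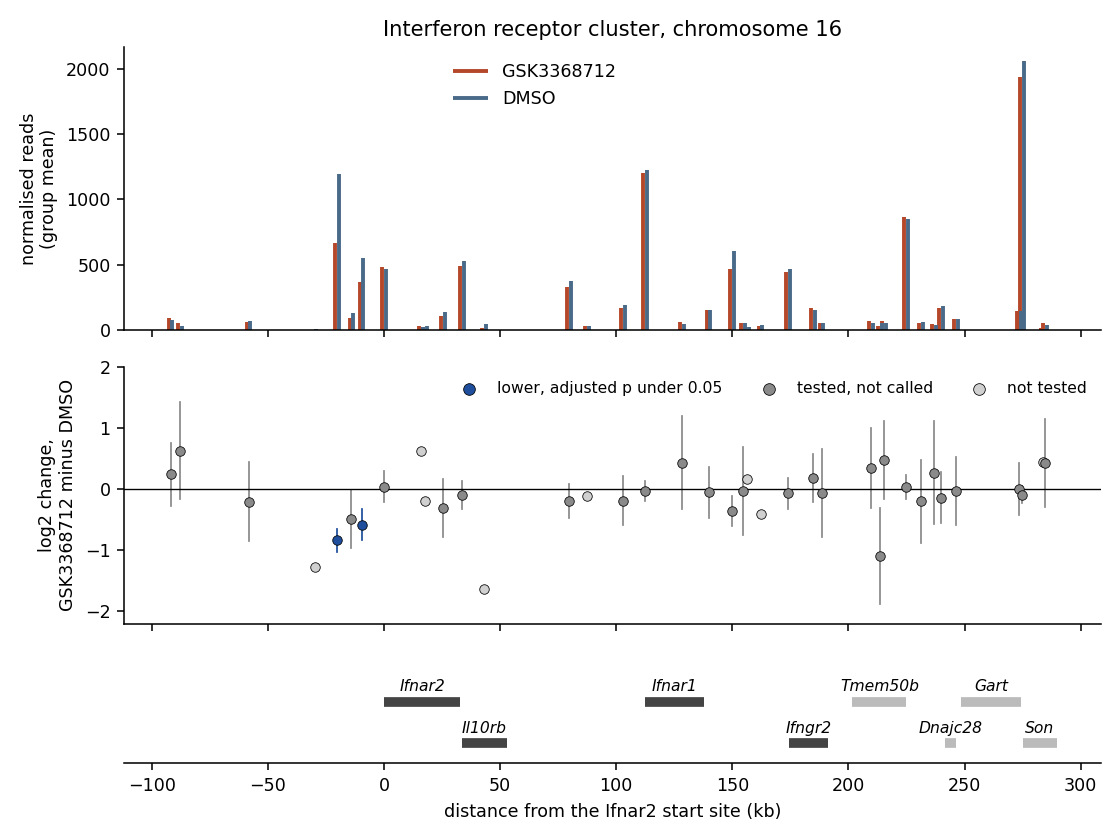
The receptor cluster on chromosome 16 with distance from the Ifnar2 start site in kb (x axis): normalised reads of each peak as group means, GSK3368712 left and DMSO right (top), log2 change with an approximate 95% interval (middle) and genes, the 4 receptor genes in dark grey, Gm36712 not drawn and Son drawn to the edge of the window (bottom). The 2 called peaks, at -0.84 and -0.58, stand 20.1 and 9.67 kb left of Ifnar2, while the start sites lie near 0.

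Jak1, the kinase shared by type I and type II receptors, had 23 peaks, the most of the 8 genes. Beside 6.09% of all tested peaks, 2 of its 19 tested ones, or 10.5%, were lower. The stronger of these lies 11.5 kb upstream of the start, at chr4:101276363-101277113, and had 244 reads under GSK3368712 and 333 in DMSO in the authors' deposited table. Its log2 change of -0.45 had an interval of -0.75 to -0.15 and, in the authors' deposited table, an adjusted p of 0.0446. After scaling to library totals this call was lost, at an adjusted p of 0.166. Its 4 neighbours farther upstream, out to 55.0 kb, had -0.22, -0.39, 0.03 and -0.26 in the authors' deposited table, and none passed. The strongest of these, 27.6 kb upstream, had 820 reads under GSK3368712 and 955 in DMSO, where the authors' deposited table gave an adjusted p of 0.206.

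The other lower Jak1 peak lies past the gene's 3′ end, 9.96 kb away at chr4:101141912-101142111, and is only 200 bp wide. It had 23.3 reads under GSK3368712 and 79.9 in DMSO in the authors' deposited table, a log2 change of -1.78 and a ratio of 0.291. Its interval was -2.58 to -0.98 and the authors' deposited table gave an adjusted p of 0.000719. All 5 peaks past the 3′ end, this one included, lie inside Raver2, an RNA-binding protein gene whose end overlaps that of Jak1. They are Jak1 peaks only by the nearest gene end. Peaks on both sides of the called one had -0.92 and -0.74 with adjusted p-values of 0.0962 and 0.0988 in the authors' deposited table. These 3 peaks were called in 0 of 2 GSK3368712 libraries and in 2 of 2 DMSO libraries, over 12.3 kb. Together they held 120 reads under GSK3368712 and 250 in DMSO by the authors' deposited table, a ratio of 0.481. The 2 peaks between them and Jak1 had 0.00 and -0.14 there.

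Inside Jak1 itself no peak passed the test. Its 9 tested peaks inside the gene had log2 changes from -0.47 to 0.25 in the authors' deposited table, with a median of 0.07. Of the 9, 8 lay above 0, beside 11912 of 33181 tested peaks of the table inside a gene and away from gene edges. This lean was not tested. The strongest of the 9 apart from the start site, 62.4 kb into the gene at chr4:101202396-101203243, had 929 reads under GSK3368712 and 873 in DMSO. Its log2 change was 0.09 and, in the authors' deposited table, its adjusted p was 0.755. The start-site peak had 1097 reads under GSK3368712 and 1075 in DMSO in the authors' deposited table. Its change was 0.03, with an approximate interval of -0.15 to 0.21 derived here. Summed over peaks inside the gene, reads were 3114 under GSK3368712 and 2978 in DMSO, while upstream they were 1401 under GSK3368712 and 1690 in DMSO by the authors' deposited table.

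**Figure D4:**
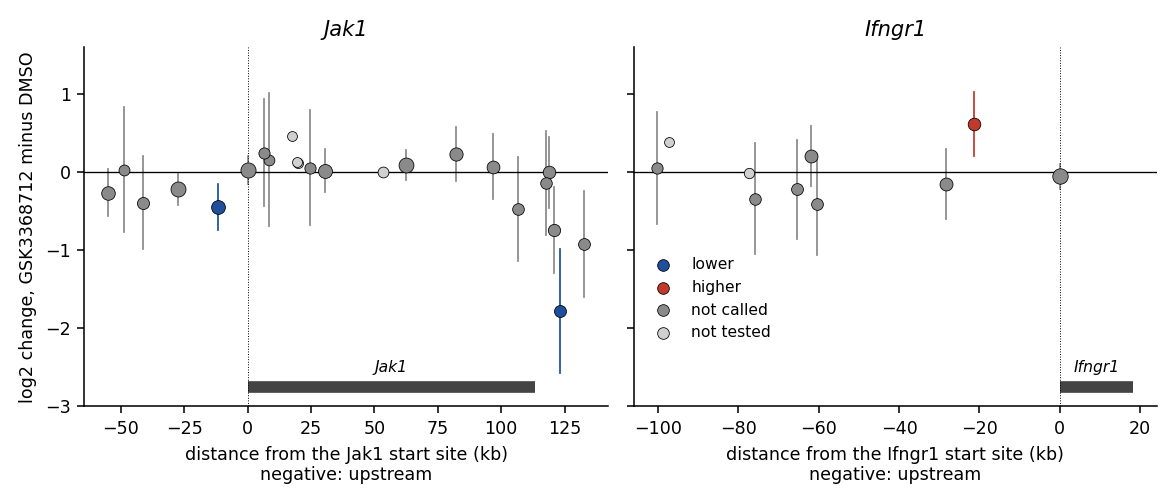
Log2 change, GSK3368712 minus DMSO (y axis), of each peak of Jak1 (left) and Ifngr1 (right) by distance from the start site in kb (x axis, upstream negative), with approximate 95% intervals, larger points for more reads in DMSO and a bar for the gene. Lower Jak1 peaks stand at -0.45 before the start and -1.78 past the gene, and the higher Ifngr1 peak at 0.62.

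Jak2, the kinase of IFNGR2, had 7 tested peaks and none passed, where 6.09% of all tested peaks were lower and 0.492% higher. Its start-site peak, at chr19:29250999-29251849, had 1418 reads under GSK3368712 and 1278 in DMSO, with 0.15, an interval of -0.04 to 0.34 and, in the authors' deposited table, an adjusted p of 0.475. A weak peak 12.2 kb upstream had 21.9 reads under GSK3368712 and 50.2 in DMSO, with -1.20 and, in the authors' deposited table, an adjusted p of 0.0695, and was called in 0 of 2 GSK3368712 and 2 of 2 DMSO libraries. The strongest peak away from the start, 2.12 kb into the gene, had 541 reads under GSK3368712 and 560 in DMSO, with -0.05 in the authors' deposited table. Tyk2 had 3 tested peaks and none passed, beside the same shares of all tested peaks. Its start-site peak, at chr9:21131020-21131716, had 1698 reads under GSK3368712 and 1746 in DMSO, with -0.04 in the authors' deposited table. The approximate interval derived here, -0.19 to 0.11, was the narrowest of the members, with an error taken from peaks of similar level. A peak upstream, 3.89 kb from the nearest gene end, had 792 reads under GSK3368712 and 885 in DMSO, with -0.16 and, in the authors' deposited table, an adjusted p of 0.497.

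**Figure D5:**
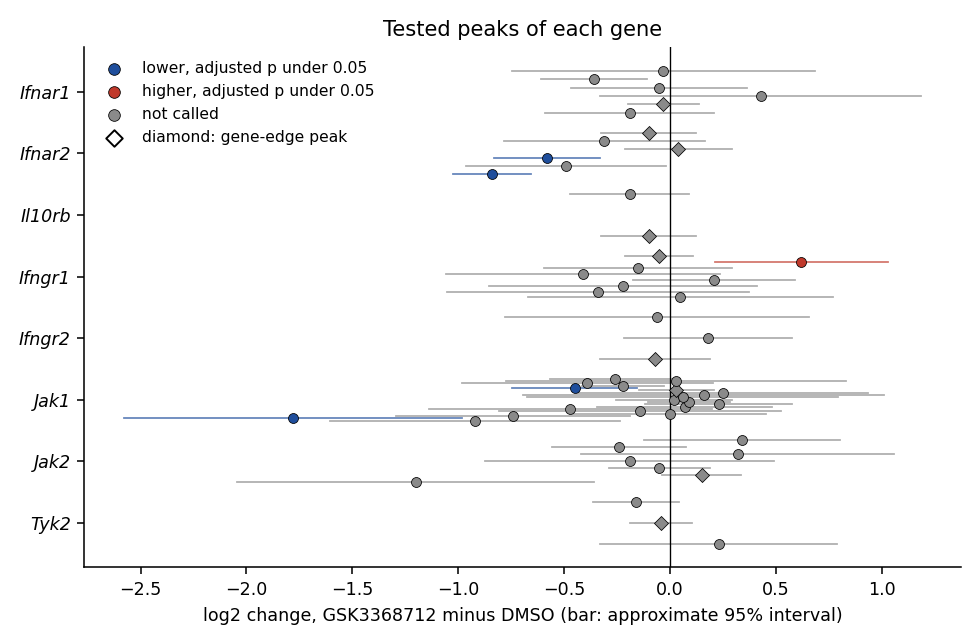
Log2 change, GSK3368712 minus DMSO (x axis), with an approximate 95% interval, of every tested peak by gene (y axis), diamonds for gene-edge peaks. Diamonds lie between -0.10 and 0.15, the lower peaks belong to Ifnar2 and Jak1 and the higher one to Ifngr1.

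Whether a peak was called in each library gives a second view of the members, from the same reads. The columns name no group, and they were assigned by the order of the groups in the comparison. With that order, the median log2 change over all peaks was -0.69 for those called in both DMSO libraries alone. It was 0.58 for those called in both GSK3368712 libraries alone. Of the 67 peaks 43 were called in all 4 libraries, which is 64.2%, beside 67.1% of all peaks. The peaks called in both DMSO libraries and in no GSK3368712 library numbered 7, or 10.4%, beside 5.56% of all peaks. The opposite pattern held for 2, or 2.99%, beside 2.39%. The 7 comprise the 3 past the 3′ end of Jak1, the ones inside Il10rb and upstream of Jak2 described above, and 2 weak ones of Ifngr1 and Jak1 with -0.01 and 0.13 in the authors' deposited table. Of these 7, 4 were tested and 1 was lower, beside 297 of the 1417 tested peaks with this pattern in the whole table. The strong Ifnar2 losses are not among them, since those peaks were called in all 4 libraries.

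Among other genes of the pathway (ligands, related receptors, factors and inhibitors) some peaks were lower and none higher. Lists of 55 such genes gave 297 tested peaks, of which 19, or 6.40%, were lower in the authors' deposited table, near the 6.09% of the table. By that table's adjusted p, from DESeq2 per the submitters' notes, 0 were higher, beside 0.492% of all tested peaks. At an unadjusted p under 0.05 in that table, 6 of the 297 were higher and 42 lower. Of all tested peaks 2.18% were higher and 14.3% lower at that threshold. The 19 belong to 10 genes of the 52 with a tested peak. Of the 47 tested gene-edge peaks 0 were among them, where 1.54% of gene-edge peaks of the table were lower. With so few peaks this 0 is near that share.

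Among STAT and IRF factors, 5 of 77 tested peaks were lower, or 6.49%, beside 6.09% of all tested peaks. A peak 27.6 kb from Irf1, a factor that interferon gamma induces, had 78.8 reads under GSK3368712 and 180 in DMSO, with -1.19 in the authors' deposited table. An intergenic one of Irf2, which competes with IRF1 for the same sites, had 67.2 reads under GSK3368712 and 141 in DMSO, with -1.07 in the authors' deposited table. Irf8, a factor of myeloid cells, had 3 lower peaks from 110 to 153 kb away, at -0.78, -0.49 and -0.75 in the authors' deposited table. The gene-edge peaks of Stat2 and Irf9, which act together downstream of the type I receptor, had -0.14 and -0.06, with adjusted p-values of 0.364 and 0.878 in the authors' deposited table.

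Among inhibitors of the pathway, 5 of 95 tested peaks were lower, or 5.26%, beside 6.09% of all tested peaks. Socs3, a feedback inhibitor of JAK kinases, had 2, at 31.7 and 24.3 kb from its end. The first had 719 reads under GSK3368712 and 1067 in DMSO, with -0.57 in the authors' deposited table, and the second 556 under GSK3368712 and 760 in DMSO, with -0.45. Ptpn1, a phosphatase that acts on JAK2 and TYK2, had 3 lower peaks at -0.37, -0.51 and -0.76 in the authors' deposited table. The gene-edge peaks of Socs1, Socs3 and Usp18, the last an inhibitor that binds IFNAR2, had 0.02, 0.02 and -0.02 in the authors' deposited table.

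Interferon genes themselves had 4 lower peaks among 37 tested, or 10.8%, beside 6.09% of all tested peaks. All 4 were assigned to Ifne, from 48.5 to 122 kb away and between -1.70 and -0.48 in the authors' deposited table. Ifne encodes an interferon of epithelia of the reproductive tract. A peak 7.83 kb from Ifnb1, the gene for interferon beta, had 416 reads under GSK3368712 and 317 in DMSO, with 0.39 and, in the authors' deposited table, an adjusted p of 0.0666. After scaling to library totals this adjusted p was 0.0227. Of the type III and interleukin 10 receptor chains 0 of 23 tested peaks were lower and 0 higher in the authors' deposited table, which uses DESeq2 per the submitters' notes. Of all tested peaks 6.09% were lower and 0.492% higher. Among other receptors and partners of the kinases 5 of 65, or 7.69%, were lower. They were 2 peaks of Il4ra at -0.74 and -0.45, 1 of Osmr at -0.89, 1 of Il6ra at -1.37 and 1 of Il6st, the shared chain of interleukin 6 family receptors, at -0.46 in the authors' deposited table.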

How the data were processed

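The build was mm10, and the submitters' processing notes name DiffBind 2.8.0 with DESeq2, then MACS2 2.1.1.20160309, HISAT2 2.1.0 and also Picard 1.113, without roles. The settings, DESeq2's version and any shift for the transposase cut were not given in the sources used here. Per the labels' protocols, 100000 cells were tagmented with a Nextera kit, amplified over 10 PCR cycles and sequenced as 42 nt pairs. The authors deposited 1 table of peaks with log2 mean normalised read counts per group, their log2 fold, p-value and adjusted p-value and the number of libraries in which each peak was called, per the file header. Values per library were not used here and the depth of each library is unknown. The authors' p-values are the main result, and p-values were recomputed only for the alternatives below.

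The change is the log2 level of GSK3368712 minus that of DMSO. Normalised reads are 2 to the power of the level. Tested peaks all had a mean of at least 35.8 reads, and recomputing the Benjamini-Hochberg adjustment over them across the whole table gave the authors' value within 2% for 74791 of 74791. A standard error was derived from each change and its p-value, taken as two-sided and normal, or for changes under 0.1 log2 from tested peaks within 0.25 log2 of the level (median). Gene ends come from RefSeq on GRCm38.p6, the assembly behind mm10, without exons. Rescaling took a constant off every change and recomputed p from this error. The steps were run on simulated peaks with normal errors, few changed peaks and centring on the median alone. That run shares the error model, so it cannot show whether the model holds for these data. Python 3.11.15, pandas 2.3.3 and scipy 1.17.1 were used. Members and gene lists were chosen with earlier results of these data known. Named peaks are, per gene: the strongest gene-edge peak, the strongest other peak, and every called peak or else that with the smallest p-value; further member peaks were added for context. Also named are pathway genes with a called peak, Stat2, Irf9, Socs1, Socs3 and Usp18, and every gene with an end in the chromosome 16 window. One further gene of that rule is not reported here. The Ifnb1 peak was added after its values were seen.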

Additional observations from a re-analysis of the deposited data

How the results depend on the processing

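The 4 lower member peaks were 3 at an adjusted p under 0.01, with folds scaled to library totals, centred on the median of tested or of gene-edge peaks, or with Benjamini-Yekutieli adjustment, and 4 within 50 kb. With no level filter they were 4, of which 3 were shared: the Jak1 peak 11.5 kb upstream was lost and the Il10rb peak inside its gene entered. At or above the median level they were also 4, of which 3 were shared: the Jak1 peak past the gene was too weak to enter and the Ifnar1 peak past its gene was gained. They were 1 with a change of at least 1 log2 unit and 0 at gene ends and bodies alone. The 1 higher member peak was 0 at an adjusted p under 0.01, with at least 1 log2 unit, with no level filter, with Benjamini-Yekutieli adjustment and at gene ends and bodies alone, and 1 in the other settings. The 19 lower peaks of the pathway lists were 4 with at least 1 log2 unit, 11 with Benjamini-Yekutieli adjustment, 4 at gene ends and bodies and 12 within 50 kb. Their 0 higher peaks became 1, the Ifnb1 peak, with each of the 3 rescalings and above the median level. A stricter threshold gives fewer calls by construction, as does counting fewer peaks at unchanged p-values. The rescalings took a negative constant off, so every log2 change moved up, which by construction weakens lower calls and strengthens higher ones. The settings of the level filter kept the p-values and altered only which peaks were adjusted for.

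Among all tested peaks the 4926 changed ones became 2781 at an adjusted p under 0.01. The log2 ratio of summed reads over all member peaks, -0.11, was 0.0088 at gene ends and bodies alone. Of the 145 alternative values for 21 named member peaks, 135 kept the status of the main setting, 9 lost a call and 1 gained one. Only 5 of these peaks were called in the main setting, so most of the 135 are uncalled peaks that stayed uncalled. They say little of how stable the calls are. None changed direction while called. The losses were those of the Jak1 peak 11.5 kb upstream, whose adjusted p was 0.0787 to 0.166 under the rescalings, and of the Ifngr1 peak. The scalings took -0.08, -0.07 and -0.03 off every log2 change.

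No paired analysis was possible because the table holds group means only, and for the same reason leaving out a replicate was not run. Low reads limit the weak peaks, whose intervals reach 0.8 log2 on each side near the lowest tested level.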
